A study of Mus musculus with 17 samples.

Results

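The 10 genes described here belong to the Notch pathway and were measured in cultured mouse astrocytes: the ligands *Jag1*, *Dll1* and *Dll3*, the receptors *Notch1*, *Notch2* and *Notch3*, the nuclear effector *Rbpj*, and the target genes *Hes1*, *Hes5* and *Hey1*. They are 10 of the 56691 gene rows of the count table, taken by gene symbol. The genes were chosen by name from the known pathway but with measured values of these same libraries in view, namely their levels and their differences between groups, so every value of theirs is given as a description and none as independent evidence of a response. The astrocytes came from C57BL/6 mouse brains at postnatal day 2, from which meninges, olfactory bulbs and cerebellum had been removed. They were purified by immunopanning, in which antibody-coated dishes first take out CD45-positive microglia and macrophages and O4-positive oligodendrocyte precursors and a HepaCAM dish then holds the astrocytes, and all groups were kept in the same serum-free medium with the EGF-receptor ligand HB-EGF. In the first experiment, SAG, a small molecule that activates the Hedgehog transducer Smoothened, was added at 500 ng/ml on day 3 in vitro for 3 days (n = 3) and compared with the DMSO control (n = 3). In the second, FGF2 (n = 4) or FGF10 (n = 3), both fibroblast growth factors at 50 ng/ml, was added on day 2 in vitro for 7 days and compared with PBS (n = 4). The 17 libraries are thus 5 groups of wild-type cells, and the study's methods call the libraries of a group biological replicates and a legend calls those of the SAG experiment sample pools. Which animals entered which library is not given in the sources used here.

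Notch signaling passes between touching cells. A ligand of the Jagged or Delta-like family on one cell opens the receptor of its neighbour to cleavage by ADAM proteases and γ-secretase, and the freed intracellular domain enters the nucleus, where it joins the DNA-binding protein RBPJ and switches on repressors of the HES and HEY families. These repressors hold down proneural factors, and in the developing brain the pathway is known for keeping neural progenitors and for favouring the astrocyte fate over the neuronal one.

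The promoters of the members were read first, because RBPJ is the shared DNA-binding step of the pathway. Promoter windows of 250 bases upstream of the annotated start were taken from RefSeq (GRCm38.p6) for 8 of the 10 members. The targets *Hes1* and *Hey1* had no window here and were not searched. *Dll1* and *Rbpj* had 2 windows each. A member counted once if any of its windows matched, whereas the shares over all promoters are per window. The RBPJ core TGGGAA, searched on both strands, was found in 2 of these 8 members, *Hes5* and *Rbpj*, and in 21.6% of all 32841 promoter windows of this length. The *Hes5* window, shown because its gene is the most abundant target here and its promoter holds the core at 226 and at 82 bases before the start, is chr4:154960673-154960922 on the plus strand. For *Rbpj*, the gene with the lowest SAG levels relative to DMSO, the first 118 bases of one of its windows are shown, chr5:53590096-53590213 on the plus strand, up to the base where GENCODE M21 annotates an exon on this strand. The core shown there lies 149 bases before the start, and a second, at 65 bases, lies in the exonic part that is not shown. Capitals mark the RBPJ core, read as TTCCCA where it lies on the opposite strand, and no other motif was capitalised in this pair.
Hes5: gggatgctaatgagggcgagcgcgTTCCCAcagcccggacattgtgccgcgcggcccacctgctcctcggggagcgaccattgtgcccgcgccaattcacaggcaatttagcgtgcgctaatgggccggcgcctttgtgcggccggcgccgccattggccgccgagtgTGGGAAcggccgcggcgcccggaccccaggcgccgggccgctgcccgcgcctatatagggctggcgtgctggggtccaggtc
Rbpj: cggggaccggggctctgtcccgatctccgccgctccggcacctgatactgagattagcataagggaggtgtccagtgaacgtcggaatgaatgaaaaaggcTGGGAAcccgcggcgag
The GLI site GGGTGGTC, the sequence bound by the Hedgehog effectors, was found in 0 of 8 members and in 0.703% of all windows. The N-box CACNAG, bound by HES repressors, was found in the 3 receptor genes and in 36.7% of all windows. None of the 3 letter patterns contains another, and a match or its absence describes these windows only.

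Each library held between 17481727 and 68342287 counts. Levels are given as CPM, the usual normalised read count scaled to a common library size, and because the libraries sample the 3′ end of each transcript, a count does not grow with transcript length and CPM can be compared between genes as an approximate transcript level. The 10 astrocyte markers summed to between 4440 and 6800 CPM in every library. The 8 microglial markers summed to at most 4.35 CPM and the 7 endothelial markers to at most 14.5 CPM, with *Cdh5*, *Cldn5* and *Emcn* at 0 in all 17 libraries but *Kdr* detected in 13. Neuronal markers summed to 513 to 921 CPM, mural markers to 63.3 to 479 CPM, ependymal markers to 83.0 to 599 CPM and fibroblast markers to 16.6 to 67.4 CPM, so transcripts known from other cell types were present. Most of the neuronal sum was *Map2*, at 438 to 868 CPM. Each other neuronal marker was at 101 CPM or less, with *Slc17a6* and *Slc17a7* at 0 in all 17 libraries. The highest mural markers by median were *Acta2* (41 to 316 CPM) and *Tagln* (13.5 to 125 CPM), with *Pdgfrb* at most 64.8 CPM and *Kcnj8* at 0 in all 17 libraries. The highest ependymal marker by median was *Foxj1* (69.7 to 448 CPM), with *Dynlrb2* at most 104 CPM and *Tmem212* at 0 in 10 libraries. Markers of the oligodendrocyte lineage summed to 1210 to 2460 CPM, with the glial progenitor factor *Olig2* alone at 756 to 2220 CPM, so transcripts of that lineage were present. The SAG label was checked with the Hedgehog targets *Ptch1* and *Gli1*. *Ptch1* was at 81.4, 103 and 67.5 CPM in DMSO and at 464, 482 and 458 CPM in SAG, and *Gli1* was at 0 in all 3 DMSO libraries and at 38.2, 6.67 and 6.70 CPM in SAG. In bulk cultures, fewer cells of a type and less RNA per cell cannot be told apart.

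Across all 17 libraries the HES targets were the most abundant members. *Hes5* averaged 321 CPM and *Hes1* 304 CPM, levels that overlapped in every group. *Notch1*, at 153 CPM, and the inhibitory ligand *Dll3*, at 139 CPM, came next and were not separated from each other by their spread. *Notch2* (67.9 CPM) and *Dll1* (64.9 CPM) followed, then *Hey1* (42.2 CPM), *Notch3* (41.1 CPM) and *Rbpj* (35.8 CPM), with ranges that overlapped within each of these sets. *Jag1* was lowest at 9.66 CPM and was at 0 in 6 of 17 libraries. Among the counts of the 5 ligand genes, which also include *Jag2* and *Dll4*, *Dll3* supplied between 35.8% and 82.8%. *Notch1* supplied between 44.4% and 70.2% of the counts of the 4 receptor genes, and *Notch4* at most 2.85%. *Hes1* supplied 30.9 to 56.2% and *Hes5* 36.0 to 63.0% of the summed counts of *Hes1*, *Hes3*, *Hes5*, *Hes7*, *Hey1*, *Hey2* and *Heyl*. In that sum *Hey2* reached at most 2.63% and *Heyl* at most 4.47%. *Hes6*, at a mean of 160 CPM over the 17 libraries, was not part of the sum.

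**Figure D1:**
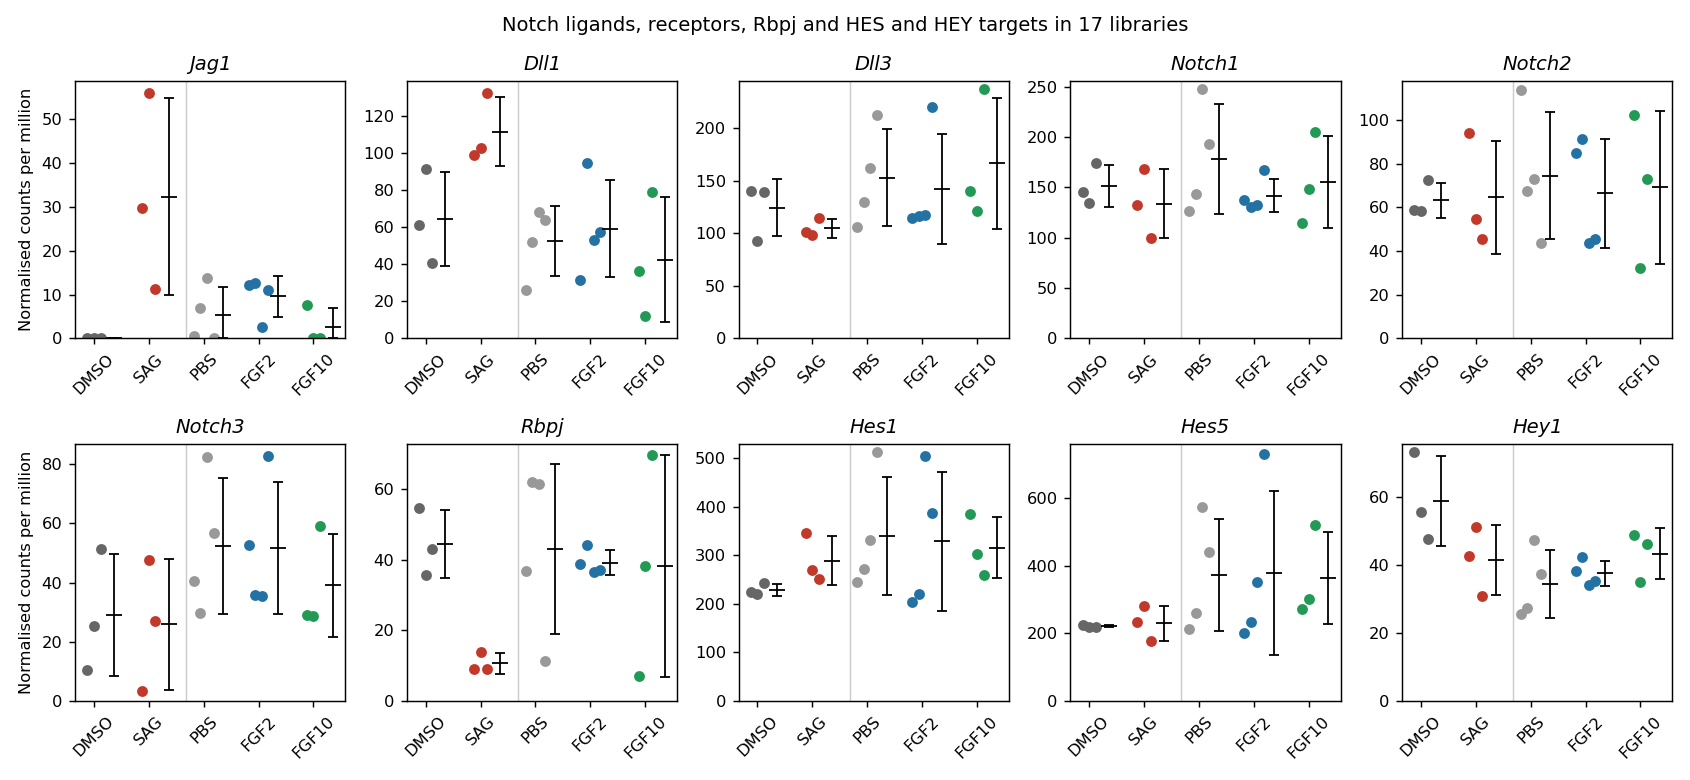
Normalised CPM (vertical axis, linear from 0) of the 10 genes in each library of the 5 groups (horizontal axis), with 1 point per library and the mean and SD as a black dash and bar, whose lower end is drawn no lower than 0. *Jag1* is at 0 in all 3 DMSO libraries and at 11.3 to 55.9 CPM in SAG, and *Rbpj* is at 8.997 to 14.02 CPM in SAG against 35.8 to 54.8 CPM in DMSO.

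The comparison of SAG with DMSO asked how Hedgehog activation altered astrocyte transcripts. *Jag1* and *Dll1* stood higher with SAG, *Rbpj* stood lower, and the targets *Hes5* and *Hey1* and all 3 receptors overlapped between the groups. Of the 10 members, 0 passed an adjusted p of 0.05 in edgeR's quasi-likelihood test, beside 8 of 12538 genes, or 0.0638%. At an unadjusted p of 0.05 there were 3 members, beside 714 of the 12538 genes, and DESeq2 called 2, *Jag1* and *Rbpj*, beside 398 genes in all. The libraries of the groups did not overlap for 4 of 10 members, *Jag1*, *Dll1* and *Hes1* higher and *Rbpj* lower, beside 14.2% of all genes tested. Because the members were chosen with this contrast known, nothing is read from these shares.

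*Jag1*, a Jagged-family ligand (chr2:137081456-137116644, GRCm38), was at 0 counts in all 3 DMSO libraries and at 29.8, 55.9 and 11.3 CPM in SAG. Those SAG levels rested on 1037, 3757 and 354 counts, and no library of the groups overlapped. Set against a floor of 3 counts in each DMSO library, the SAG mean of 32.3 ± 22.4 CPM (SD, n = 3) was at least 469-fold higher, and the lowest SAG library at least 164-fold. The floor covers counting error only, since no molecular identifiers are stated and PCR copies of a read are not independent molecules. It does not cover differences between cultures of a group. *Jag1* was also at 0 in replicate 4 of PBS and in replicates 2 and 3 of FGF10, beside detected libraries of the same groups. Replicate 3 of the vehicle PBS, at 13.8 CPM, lay above the lowest SAG library. *Jag1* missed the adjusted threshold in edgeR (adjusted p = 0.0624) and passed it with DESeq2. In edgeR it passed when low counts were not filtered or when genes were kept from a mean of 10 counts. It missed the threshold in edgeR with DESeq2 size factors (0.061), a replicate block (0.0707) and all 5 groups in one fit (0.26). Leaving out 1 library at a time gave adjusted p of 0.1 to 0.527 in edgeR. Such a pattern was not unique to *Jag1*: 18 genes (0.144%) had 0 counts in every DMSO library and 10 or more in every SAG library, and 101 genes (0.806%) had the opposite pattern. By its lowest SAG level, *Jag1* ranked at position 2 of those 18.

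The Delta-like ligands are the second ligand family of the pathway. *Dll1*, an activating ligand (chr17:15367354-15376872), was at 61.1, 91.4 and 40.8 CPM in DMSO and at 99.3, 103 and 133 CPM in SAG. The lowest SAG library exceeded the highest DMSO library, and the log2(fold-change) was 0.82 ± 0.34 (SE). *Dll3*, which acts inside the cell against the receptor rather than as an activator (chr7:28293553-28302238), was at 141, 92.9 and 139 CPM in DMSO and at 101, 98.1 and 115 CPM in SAG. Its groups overlapped, with a log2(fold-change) of -0.22 ± 0.26 (SE). A long noncoding gene on the opposite strand, *A930024N18Rik*, overlaps *Dll1*. Genes on the opposite strand also overlap *Notch1*, *Notch3*, *Rbpj* and *Hes5*, and genes on the same strand overlap *Notch1* and *Notch2*. Whether counting used the strand is not given in the sources used here.

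The receptors showed no separation of the groups. *Notch1* (chr2:26457903-26516663) was at 145, 134 and 174 CPM in DMSO and at 133, 168 and 99.8 CPM in SAG, a log2(fold-change) of -0.16 ± 0.26 (SE). *Notch2* (chr3:98013527-98150361) was at 59.0, 58.3 and 72.3 CPM in DMSO and at 94.0, 54.5 and 45.3 CPM in SAG. The SAG libraries lay on both sides of the DMSO libraries for *Notch2*. *Notch3*, known from mural cells and neural progenitors (chr17:32120820-32166852), was the most uneven receptor, at 10.6, 25.2 and 51.4 CPM in DMSO and at 3.39, 47.4 and 26.9 CPM in SAG.

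*Rbpj*, the DNA-binding partner of the receptor's intracellular domain (chr5:53466152-53657362), was at 54.8, 35.8 and 43.0 CPM in DMSO and at 9.01, 14.02 and 8.997 CPM in SAG. The highest SAG library lay below the lowest DMSO library, and the log2(fold-change) was -2.04 ± 0.62 (SE). *Rbpj* was not called in edgeR and was called with DESeq2. Low levels were not confined to SAG: *Rbpj* was also at 11.4 CPM in replicate 4 of PBS and at 7.04 CPM in replicate 1 of FGF10. These low libraries still held 182 to 942 *Rbpj* counts each.

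Of the targets, *Hes1* (chr16:30064384-30067796) was at 223, 220 and 243 CPM in DMSO and at 345, 269 and 251 CPM in SAG. Its SAG libraries all lay above DMSO by a small margin, with a log2(fold-change) of 0.36 ± 0.20 (SE). *Hes5* (chr4:154960923-154962371), whose promoter was printed above with its RBPJ cores, was at 226, 219 and 220 CPM in DMSO and at 234, 280 and 177 CPM in SAG. The DMSO libraries fell inside the SAG range, and the log2(fold-change) was 0.08 ± 0.22 (SE). *Hey1*, a HEY-family repressor (chr3:8663359-8667256), was at 73.1, 55.5 and 47.5 CPM in DMSO and at 42.5, 51.1 and 30.8 CPM in SAG, with overlapping groups and a log2(fold-change) of -0.48 ± 0.40 (SE).

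Cell type markers moved between these groups as well. The 10 oligodendrocyte lineage markers did not move together: *Olig2* was at 1763 to 1910 CPM in SAG and at 939 to 1437 CPM in DMSO, whereas *Sox10* was at 39.4 to 48.6 against 72.1 to 118 CPM and *Gpr17* at 0 to 7.75 against 18.9 to 48.7 CPM. Their sum, most of it *Olig2*, was 1910 to 2080 against 1270 to 1730 CPM. Astrocyte markers summed to 4880 to 5460 against 5740 to 6130 CPM. Within that list *Aldh1l1* went the other way, at 199 to 353 CPM in SAG against 151 to 173 CPM in DMSO. Neuronal markers, most of their sum *Map2*, summed to 513 to 708 against 734 to 921 CPM. Ependymal markers summed to 86.5 to 156 against 210 to 289 CPM. Endothelial markers summed to 7.63 to 13.1 CPM in SAG and to 0 to 5.81 CPM in DMSO, with *Cdh5*, *Cldn5* and *Emcn* at 0, and mural markers to 212 to 273 against 194 to 317 CPM. The part of these markers in the member values was not tested.

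**Figure D2:**
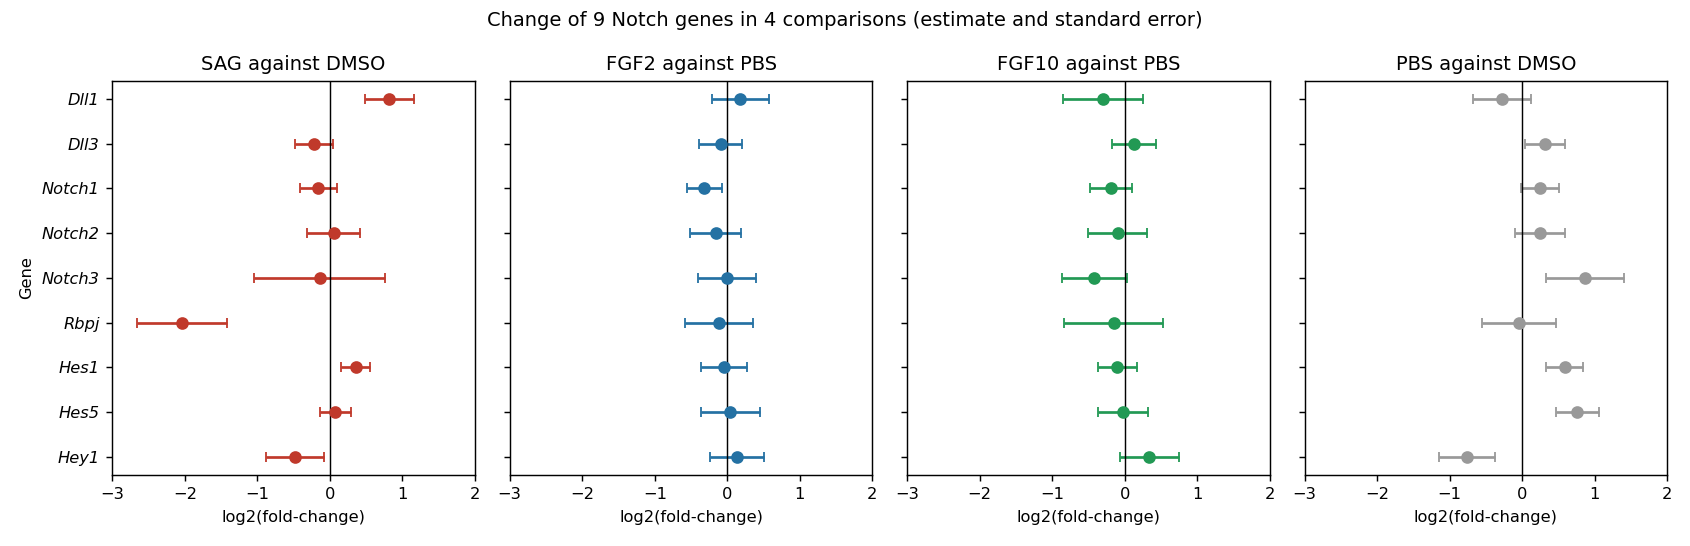
The log2(fold-change) from edgeR (horizontal axis) with its standard error for 9 genes (vertical axis) in 4 panels, for SAG and for PBS relative to DMSO and for FGF2 and FGF10 relative to PBS. *Jag1* is left out because its fitted fold against a group at 0 depends on the prior count. *Rbpj* in SAG, at -2.04, lies farthest from 0.

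A wider list of 54 further Notch pathway genes was written from general knowledge of the pathway, and 48 of them passed the filter on low counts in the SAG experiment. Of these, 0 were called in edgeR, with 3 at an unadjusted p under 0.05, and DESeq2 called 2, among them the HEY-family gene *Heyl*. The libraries did not overlap for 7 of the 48 (14.6%), 3 higher and 4 lower, beside 14.2% of all genes tested, so the list was close to the background. The median log2(fold-change) of the list was 0.18 beside -0.02 for all genes tested.

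*Heyl*, a relative of *Hey1*, was at 0.676, 0 and 0 CPM in DMSO and at 12.0, 13.9 and 21.4 CPM in SAG. *Mib2*, a ubiquitin ligase that drives endocytosis of ligands, was at 17.9, 27.4 and 20.1 CPM in DMSO and at 41.1, 51.6 and 33.2 CPM in SAG. Every SAG library of *Heyl* and *Mib2* lay above the DMSO libraries. The 4 genes that lay wholly below were the Groucho corepressor *Tle1* (50.3 ± 6.06 against 90.3 ± 18.7 CPM, SD), the γ-secretase subunit *Aph1b* (8.26 ± 6.41 against 30.2 ± 6.14 CPM), the Deltex-family gene *Dtx3* (60.5 ± 9.26 against 93.0 ± 22.6 CPM) and the coactivator *Maml3* (8.81 ± 6.68 against 17.04 ± 3.23 CPM), each with n = 3 per group.

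The most abundant genes of each role that overlapped between the groups are given as SAG against DMSO means (SD, n = 3). Among ligands, the noncanonical *Dner* was at 22.3 ± 9.13 against 18.5 ± 7.05 CPM and *Dll4* at 12.5 ± 4.84 against 22.3 ± 15.2 CPM. Of the proteases, *Adam17*, which sheds the receptor ectodomain, was at 48.2 ± 17.3 against 61.4 ± 29.3 CPM, and *Psen2*, a catalytic subunit of γ-secretase, at 43.2 ± 33.5 against 33.5 ± 6.90 CPM. These spreads were wider than the differences. The Fringe glycosyltransferase *Lfng*, which tunes the choice of ligand, was at 81.7 ± 13.4 against 75.7 ± 2.57 CPM. Among nuclear partners, *Spen* was at 182 ± 44.1 against 155 ± 69.3 CPM and *Tle3* at 112 ± 15.8 against 134 ± 35.8 CPM. The ubiquitin ligase *Itch*, which acts on Notch turnover, was at 89.8 ± 35.2 against 62.8 ± 40.2 CPM. *Hes6*, a HES gene that opposes HES1, was at 185 ± 38.0 against 140 ± 53.0 CPM. The proneural genes *Neurog1* and *Neurod4*, of the kind that HES repressors restrain, were at 0 in all 17 libraries. Other genes of that role were detected: over the 17 libraries *Neurog2* averaged 22.2 CPM, with 1 library at 0, and *Insm1* averaged 50.8 CPM.

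**Figure D3:**
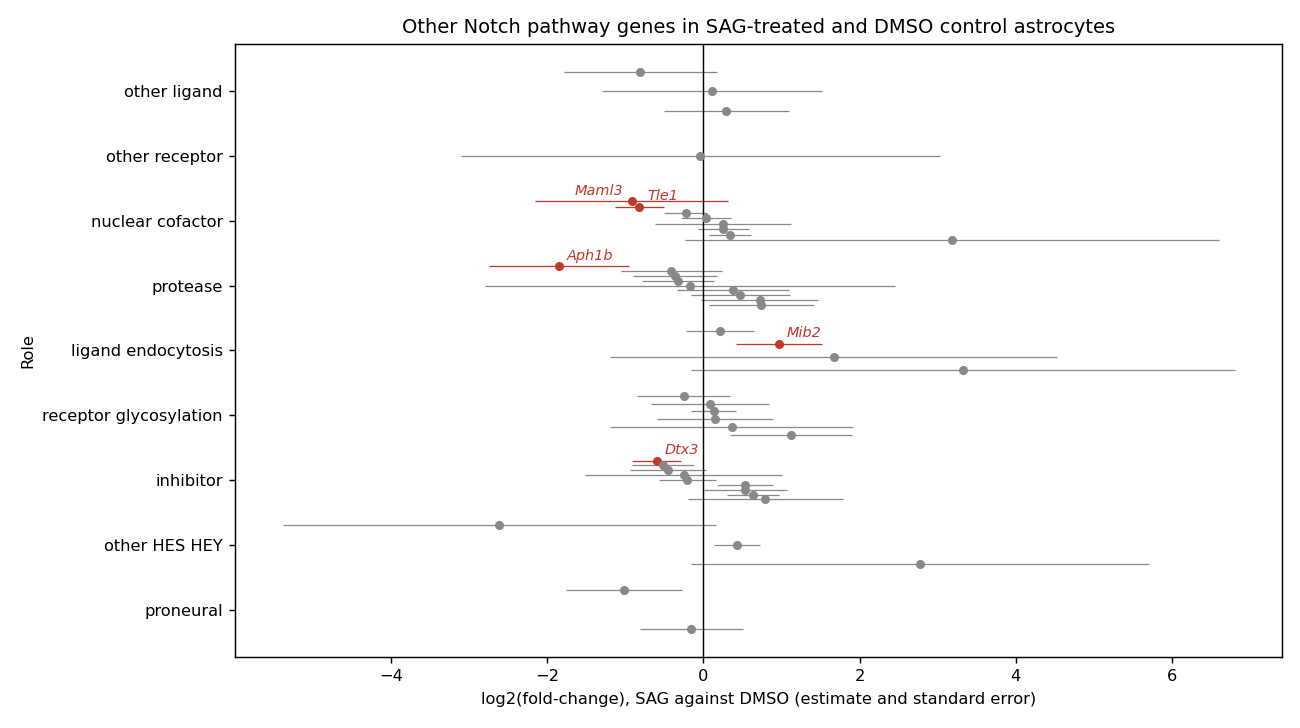
The log2(fold-change) from edgeR, SAG against DMSO, with its standard error (horizontal axis) for further pathway genes, arranged by role (vertical axis), with *Heyl* left out because 2 of its 3 DMSO libraries are at 0. Red points with names are genes whose libraries did not overlap, and none was called.

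FGF2 and FGF10 were each compared with PBS to ask how a week of FGF signaling altered astrocytes, and the pair of comparisons shares the 4 PBS libraries. No member separated from PBS under either factor. In edgeR 0 of 10 members were called with FGF2, beside 0% of 12744 genes, and 0 with FGF10, beside 0% of 13309 genes, with 0 members at an unadjusted p under 0.05 in both and 0 called by DESeq2. Across all genes 223 and 305 passed an unadjusted p of 0.05. The groups did not overlap for 0 of 10 members with either factor, beside 2.45% of genes with FGF2 and 4.79% with FGF10.

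The ligands spanned wide ranges within each group. *Jag1* was at 0.512, 6.97, 13.8 and 0 CPM in PBS, at 12.2, 12.7, 2.60 and 10.97 CPM with FGF2, and at 7.51, 0 and 0 CPM with FGF10. *Dll1* was at 26.3, 52.2, 68.2 and 63.9 CPM in PBS, at 31.8, 95.0, 53.0 and 57.7 CPM with FGF2 (log2(fold-change) 0.18 ± 0.39, SE), and at 36.5, 12.2 and 78.9 CPM with FGF10. *Jag1* was detected in all 4 FGF2 libraries but within the range of PBS for each of them. *Dll3* was at 106, 129, 162 and 213 CPM in PBS, at 115, 116, 117 and 220 CPM with FGF2, and at 140, 121 and 237 CPM with FGF10.

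Receptor levels were close between groups relative to their spread. *Notch1* was at 126, 144, 248 and 193 CPM in PBS, at 137, 131, 133 and 167 CPM with FGF2, and at 114, 148 and 205 CPM with FGF10. The FGF2 libraries of *Notch1* lay within the PBS range, with a log2(fold-change) of -0.32 ± 0.25 (SE). *Notch2* ranged from 43.9 to 114 CPM in PBS, from 43.8 to 91.1 CPM with FGF2 and from 32.3 to 102 CPM with FGF10. *Notch3* was at 40.5, 29.7, 82.3 and 56.8 CPM in PBS, at 52.6, 35.8, 35.6 and 82.8 CPM with FGF2, and at 29.1, 28.8 and 59.1 CPM with FGF10 (log2(fold-change) -0.42 ± 0.45, SE).

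The effector and targets were equally unseparated. *Rbpj* was at 36.8, 62.0, 61.5 and 11.4 CPM in PBS, at 39.0, 44.3, 36.7 and 37.0 CPM with FGF2, and at 7.04, 38.1 and 69.7 CPM with FGF10, so that both low libraries fell in groups whose other libraries were at 36.8 CPM or more. *Hes1* was at 244, 272, 331 and 513 CPM in PBS, at 204, 221, 504 and 387 CPM with FGF2, and at 384, 303 and 259 CPM with FGF10. *Hes5* was at 212, 262, 572 and 440 CPM in PBS, at 200, 235, 351 and 731 CPM with FGF2, and at 271, 301 and 520 CPM with FGF10. Within each group the HES genes varied by more than the groups differed: for FGF2 the log2(fold-change) was -0.04 ± 0.32 (SE) for *Hes1* and 0.04 ± 0.41 (SE) for *Hes5*, and for FGF10 it was -0.10 ± 0.27 and -0.03 ± 0.34. *Hey1* ranged from 25.5 to 47.3 CPM in PBS, from 34.1 to 42.3 CPM with FGF2 and from 34.9 to 48.8 CPM with FGF10 (log2(fold-change) 0.34 ± 0.41, SE). The standard errors of the fold changes printed for FGF2 and FGF10 ran from 0.25 to 0.45 on the log2 scale. For *Rbpj* they were 0.47 with FGF2 and 0.68 with FGF10. Differences within them were not detectable, and larger ones could also be missed.

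Few of the further pathway genes separated under either factor. Of 47 tested with FGF2, 0 were called and 1 (2.13%, beside 2.45% of all genes) did not overlap, *Numb*, which antagonises Notch by sorting the receptor, at 18.8, 6.66, 14.1 and 20.1 CPM in PBS and at 33.6, 44.1, 21.8 and 23.4 CPM with FGF2. Of 47 tested with FGF10, 0 were called and 0 did not overlap, beside 4.79% of all genes. At an unadjusted p under 0.05 there were 0 in both, beside 223 of 12744 and 305 of 13309 genes, and DESeq2 called 0 in both.

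In the FGF experiment, *Hes5* levels separated by replicate number. *Hes5* was at 200 to 301 CPM in the 6 libraries of replicates 1 and 2 (mean 247 ± 38.1, SD) and at 351 to 731 CPM in the 5 libraries of replicates 3 and 4 (523 ± 143), a ratio of means of 2.12. *Hes5* was the 1 member of 10 whose libraries did not overlap between these sets, beside 4.81% of the 14553 genes that passed the filter. Other members differed in the same direction with overlap: *Notch3* by a ratio of 1.75, *Dll3* by 1.57, *Dll1* by 1.52, *Hes1* by 1.47 and *Notch1* by 1.42. The ratios of *Rbpj* (1.14) and *Hey1* (1.11) were smaller. *Notch2* and *Jag1* differed in the opposite direction, at ratios of 0.682 and 0.823, also with overlap. The labels give the replicate numbers without stating what a number stands for, and the sets were compared with their values known, so no test is given.

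Of the further pathway genes, 49 passed the filter and 4 of these did not overlap between the sets, beside 4.81% of all 14553 genes that passed. The coactivator *Maml2* was higher in replicates 3 and 4 (96.6 ± 11.4 against 58.1 ± 12.6 CPM, SD, n = 5 and 6). *Numbl*, a relative of *Numb*, was lower (28.0 ± 11.9 against 79.0 ± 22.9 CPM), as were *Dtx3* (83.4 ± 7.35 against 117 ± 19.9 CPM) and the neuronal precursor factor *Insm1* (27.2 ± 22.1 against 83.8 ± 18.2 CPM). Cell type markers differed between the same sets. Astrocyte markers summed to 6030 to 6800 CPM in replicates 1 and 2 and to 4440 to 4850 CPM in replicates 3 and 4, mural markers to 215 to 479 against 63.3 to 145 CPM, ependymal markers to 355 to 599 against 83.0 to 231 CPM, and oligodendrocyte lineage markers to 1210 to 1590 against 1870 to 2460 CPM. Within the last list *Olig2* was at 756 to 985 against 1502 to 2217 CPM, and the other markers of that list did not all move with it: *Pdgfra* was at 25.5 to 57.5 against 13.2 to 29.5 CPM. In the astrocyte list *Aldh1l1* went against the sum, at 166 to 246 CPM in replicates 1 and 2 and at 302 to 432 CPM in replicates 3 and 4. The part of these markers in the *Hes5* levels was not tested.

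**Figure D4:**
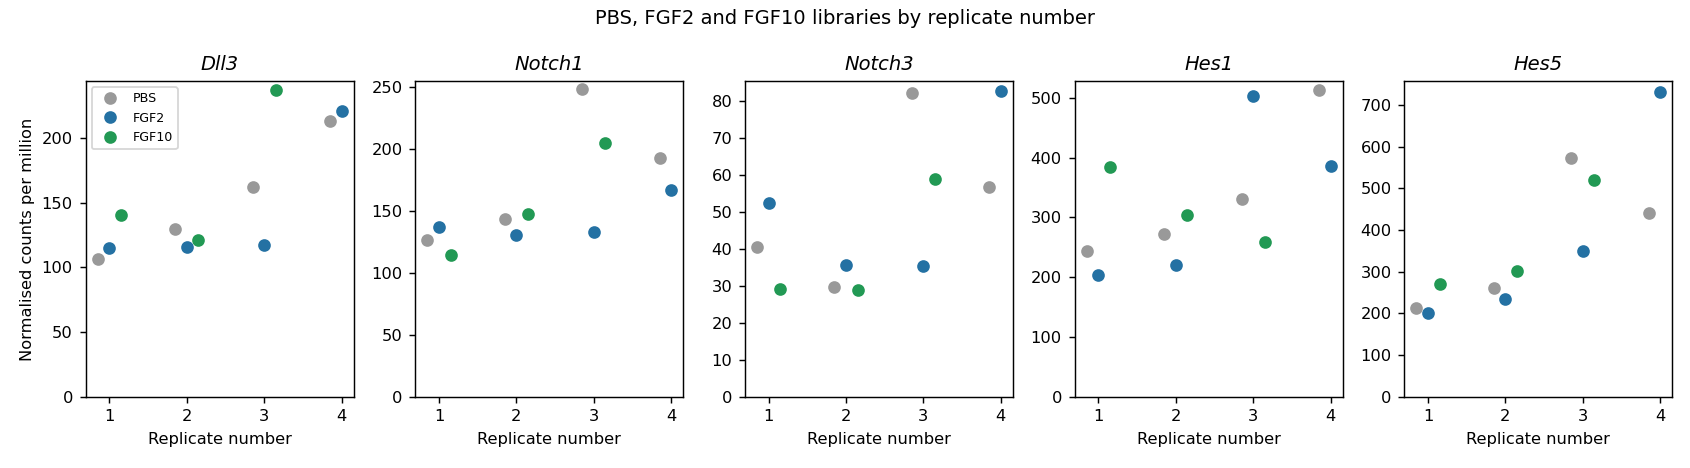
Normalised CPM (vertical axis, linear from 0) of *Dll3*, *Notch1*, *Notch3*, *Hes1* and *Hes5* in each PBS, FGF2 and FGF10 library by replicate number (horizontal axis), 1 point per library. For *Hes5* every point of replicates 3 and 4, at 351 CPM or more, lies above every point of replicates 1 and 2, at 301 CPM or less.

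The vehicle groups place the members between the experiments, although vehicle, day of addition and length of culture differ together between them and cannot be told apart. In edgeR 0 of 10 members were called in PBS against DMSO, beside 0% of 13271 genes, with 3 members (*Jag1*, *Hes1* and *Hes5*) and 580 genes in all at an unadjusted p under 0.05 and 0 members called by DESeq2. The groups did not overlap for 2 of 10 members, *Hes1* higher and *Hey1* lower in PBS, beside 6.44% of genes. *Hes1* averaged 340 ± 121 CPM (SD, n = 4) in PBS and 229 ± 12.2 CPM (n = 3) in DMSO, a log2(fold-change) of 0.59 ± 0.26 (SE). *Hes5* averaged 372 ± 166 against 222 ± 3.82 CPM, a log2(fold-change) of 0.76 ± 0.30 (SE), with the PBS libraries of replicates 1 and 2 at 212 and 262 CPM and those of replicates 3 and 4 at 572 and 440 CPM. *Hey1* averaged 34.3 ± 10.1 against 58.7 ± 13.1 CPM, a log2(fold-change) of -0.76 ± 0.39 (SE), and *Notch3* 52.3 ± 22.9 against 29.1 ± 20.7 CPM, a log2(fold-change) of 0.86 ± 0.54 (SE). Of 46 further pathway genes tested, 0 were called, 3 passed an unadjusted p of 0.05, DESeq2 called 0, and 2 (4.35%) did not overlap. Both lay lower in PBS, *Lfng* at 33.9 ± 17.2 against 75.7 ± 2.57 CPM and *Maml3* at 3.00 ± 4.71 against 17.04 ± 3.23 CPM.

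The genes whose levels followed a member most closely over the 17 libraries were ranked by Spearman's rho among 9068 genes with a mean of at least 10 CPM. The ranking is a description, since the libraries share their culture, experiment and depth. *Pold2* was closest to *Hes5* (rho = 0.907), *Jpt1* to *Notch3* (0.885), *Ttc3* to *Hey1* (0.846) and *Smad3* to *Dll1* (0.836). *Eps15* was closest to *Notch1* (0.831), *Gm9776* to *Notch2* (0.824), *Sppl3* to *Rbpj* (0.806) and *Rtkn* to *Dll3* (0.799). Between members, *Hes1* and *Hes5* followed each other most closely (0.725), then *Dll3* and *Hes5* (0.662) and *Notch1* and *Notch3* (0.615). *Jag1*, at 0 in 6 libraries, was not ranked.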

How the data were processed

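Raw gene-level read counts deposited by the authors were used for 17 bulk libraries made with a 3′-end kit (QuantSeq FWD). The submitters' processing notes name STAR, DESeq2 and GRCm38, and the annotation, strand setting and any use of molecular identifiers are not given in the sources used here. The 114 spike-in rows were left out. The methods describe 3 FGF2 replicates and the labels list 4, all of which were used. The SAG columns carry a Shh name in the table.

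Each comparison was fitted on the libraries of its 2 groups with edgeR 4.0.16 in R 4.3.3 (filterByExpr, minimum count 10 and total 15; TMM; quasi-likelihood test; Benjamini-Hochberg over all genes tested), and a gene was called at an adjusted p under 0.05. CPM were TMM-normalised over all 17 libraries, and SE is the log2(fold-change) divided by the root of the F statistic. DESeq2 1.42.0, other filters, scalings and sample sets were alternatives. The fit was run on simulated data with large changes and a spread far below that of these libraries. That run checked the code and does not show how many changes could be found here. The members and gene lists were chosen with earlier results of these data known. Further pathway genes were named if called, if their groups did not overlap at a mean of 5 CPM or more, or if among the most abundant of their role. Replicate pairs of a group differed by 152 to 532 chi-square units per degree of freedom over 21 pairs, so none was one library deposited more than once. Deviations of same-numbered FGF2 and PBS libraries correlated at 0.114 to 0.133, beside 0.096 to 0.145 for the best other PBS library. The own number was best for FGF2 replicates 2 and 4 but not for 1 and 3. For FGF10 the values were 0.056 to 0.118 beside 0.052 to 0.11. For SAG they were -0.011 to 0.003 beside 0.002 to 0.013. Pairing by number was thus not established, and the main fits carried no pairing term. Some genes of the lists and rankings are not reported here.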

Additional observations from a re-analysis of the deposited data

Results flagged for a closer look

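In each of the PBS and FGF2 groups, the highest or lowest library of every member was compared with the nearest other library, 20 groups of values in all, of which about 1 in 20 would stand apart by chance. *Dll3* was at 220 CPM in replicate 4 of FGF2, whereas the other 3 FGF2 libraries lay at 115 to 117 CPM. *Notch1* was at 167 CPM in the same library, and the others lay at 131 to 137 CPM. This library also held the highest *Hes5* level of all 17.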

How the results depend on the processing

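The number of genes called in SAG against DMSO was 8, and it was 76 without a filter on low counts, 42 when genes were kept from a mean of 10 counts, 398 with DESeq2 and 4 with all 5 groups in one fit. Leaving out 1 library at a time gave 1 to 7 genes: 1 without DMSO replicate 1, 5 without DMSO replicate 2 or 3, 2 without SAG replicate 2 or 3 and 7 without SAG replicate 1. DESeq2 called 2 further pathway genes in that comparison, 120 genes in FGF2 against PBS and 104 in FGF10 against PBS. PBS against DMSO gave 36 genes without a filter, 4 with the mean filter, 193 with DESeq2 and 1 with all groups in one fit, and the cause was not tested. The fit with the replicate block gave 12 genes in SAG against DMSO, where the numbers did not pair the libraries, and called no member and no further pathway gene in the 3 treatment comparisons. Of 36 fold changes of members other than *Jag1*, 22 changed sign under at least 1 alternative and 14 did not, the latter including *Dll1*, *Rbpj*, *Hes1* and *Hey1* in SAG against DMSO. With FGF2, *Hes5* reversed to -0.05 with the replicate block, 0.00 with the replicate set as a term and -0.12 in replicates 1 and 2, *Dll1* to -0.25 and *Hes1* to 0.08 in replicates 3 and 4. With FGF10, *Hes1* was 0.17, 0.10 and 0.41 and *Hes5* 0.15, 0.21 and 0.27 with the block, the set as a term and replicates 1 and 2. Leaving out 1 library at a time, the log2(fold-change) ranged from -0.08 to 0.23 for *Hes5* and -0.35 to 0.01 for *Notch1* with SAG, from -0.14 to 0.39 for *Dll1*, -0.33 to 0.23 for *Hes1* and -0.50 to 0.33 for *Hes5* with FGF2, and from -0.29 to 0.16 for *Hes1* and -0.38 to 0.25 for *Hes5* with FGF10. The biological coefficient of variation was 107% to 117%, so small changes could not be resolved.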
